A study of Rattus norvegicus with 8 samples.

Results

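Early signals of inflammation were examined through 6 genes: the chemokine genes Cxcl1, Cxcl2 and Ccl2 and the cytokine genes Il1b, Il6 and Tnf. All probe sets whose platform annotation gave exactly 1 of these symbols were taken, dim ones included. This gave 7 probe sets for 6 genes, with 1 probe set for each gene and 2 for Tnf, out of 15866 probe sets without controls that represented 10411 named genes. All 7 gene identifiers matched the same symbol in the RefSeq gene table.

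RNA came from part of the right cerebral hemisphere of male Wistar rats aged 7 weeks and was hybridised to Affymetrix RAE 230A arrays, each array holding a pool of 2 animals. Transient stroke was produced by middle cerebral artery occlusion (MCAO) on the right side, held for 90 min before blood was let back in, and tissue was taken 2 h after surgery. The 4 groups, with 2 pools each, were MCAO after candesartan, MCAO after vehicle, sham surgery after candesartan and sham surgery after vehicle. Candesartan, a blocker of the angiotensin AT1 receptor, was injected under the skin at 0.1 mg/kg 2 times a day for 5 days, and the vehicle, 0.9% saline, was given on the same schedule. For the array MCAO candesartan 2 the treatment protocol gave no pretreatment. It was placed by its source name and description, and it also stood apart in its values. It correlated with the rest at 0.960 on average, against 0.976 to 0.978 for the other 7 arrays, and the pools of MCAO candesartan differed by a median of 0.24 (log2) over all probe sets, against 0.14 to 0.16 in the other groups. Markers of brain cells were read by a signal criterion, over 916.3 (the 40th percentile of all values) on at least 2 arrays. All 11 measured neuron markers and all 11 measured astrocyte markers met it. As 10310 of all 15866 probe sets also met it, this says little about the brain origin of the tissue.

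Chemokines are small secreted proteins that draw white blood cells along a gradient. Cxcl1 and Cxcl2 act on the receptor Cxcr2 and attract neutrophils, and Ccl2 acts on Ccr2 and attracts monocytes. Il1b, Tnf and Il6 are cytokines that switch on endothelial cells, glia and leukocytes. After brain ischemia they are known to be made by microglia, astrocytes, endothelium and invading leukocytes, and their transcription depends in large part on NF-kB. In bulk tissue a change in the number of cells of a type and a change in RNA per cell cannot be told apart.

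Cxcl1 and Ccl2 rose after MCAO over both pretreatments, while the other 4 genes did not pass the test in any comparison. Cxcl1 rose by 1.79 ± 0.20 and Ccl2 by 1.30 ± 0.16 on the log2(signal + 369.9) scale (difference ± SE, 4 MCAO pools against 4 sham pools). The adjusted p by limma was 0.0133 for Cxcl1 and 0.0192 for Ccl2. These 2 of the 7 probe sets stand beside 30 of all 15866, or 0.189%, that were called higher in that comparison. The offset of 369.9 is the 20th percentile of all signals, and it makes the differences of dim genes smaller than their ratios of signals. All p-values were adjusted over the 15866 probe sets, and those with an adjusted p under 0.05 are spoken of as called.

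**Figure D1:**
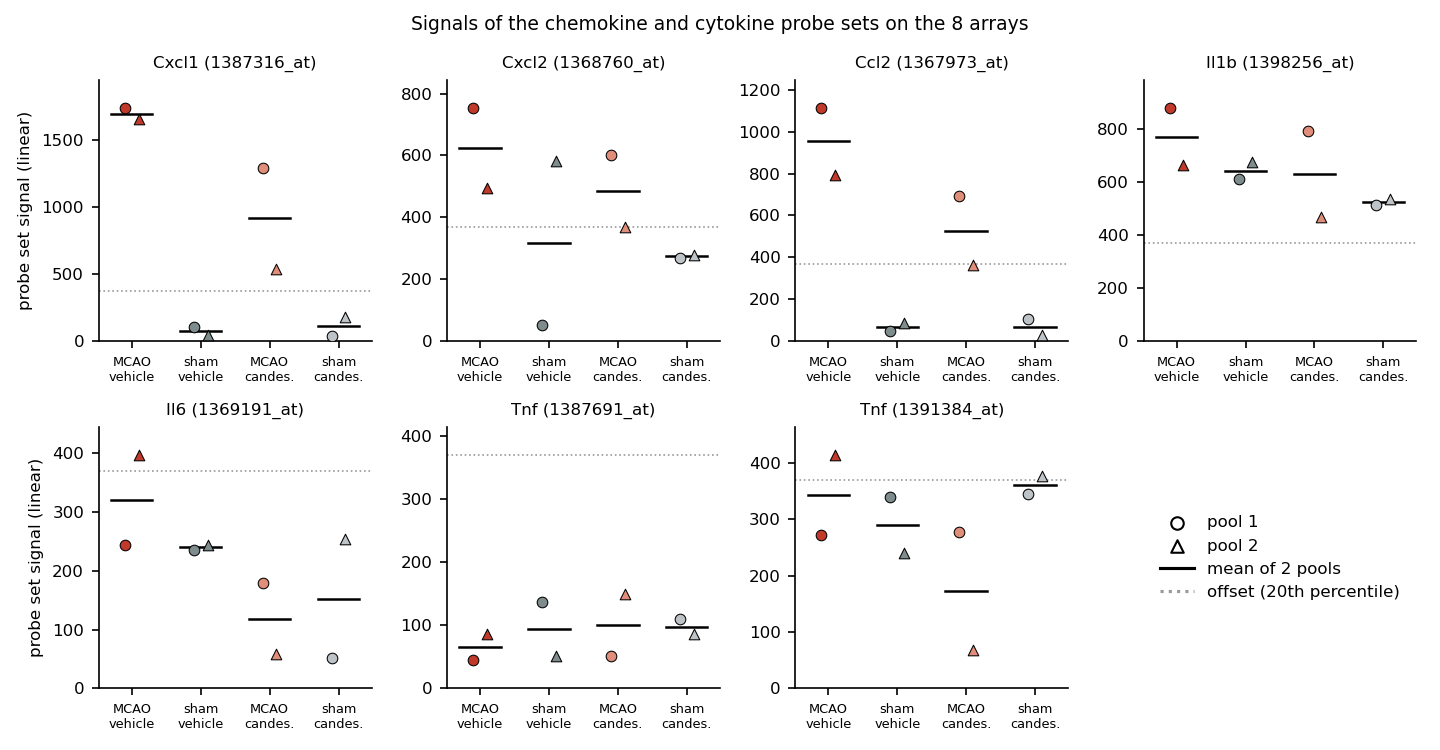
Probe set signals (linear scale, from 0) of the 7 probe sets in each pool, by group, with the group mean as a bar and the offset of 369.9 as a dotted line. Cxcl1 and Ccl2 lie higher in all 4 MCAO pools than in all 4 sham pools, and the other probe sets overlap.

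Cxcl1 showed the widest separation. Its signals were 1736.7 and 1654.2 in the MCAO vehicle pools, against 107.0 and 46.5 in the sham vehicle pools. With candesartan they were 1286.7 and 540.4 in the MCAO pools, against 38.5 and 181.5 in the sham pools. Every MCAO pool was above every sham pool, and all sham pools lay below the offset. The ratio of mean signals was 22.1 with vehicle and 8.30 with candesartan, over sham signals so dim that the ratios are uncertain. The table used here gave no detection calls.

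Tested within each pretreatment, Cxcl1 did not pass. The difference was 2.21 ± 0.29 with vehicle (adjusted p = 0.0516 by limma) and 1.37 ± 0.29 with candesartan (adjusted p = 0.210 by limma). With vehicle 12 probe sets in all were called higher, or 0.0756%, and with candesartan 15, or 0.0945%, besides 1 called lower, or 0.0063%. With vehicle Cxcl1 passed when only the 4 vehicle arrays were fitted (adjusted p = 0.0176). Of the 7 probe sets it alone met the signal criterion of 916.3 on at least 2 arrays, and it did so only through MCAO pools, so its adjusted p among the probe sets that met it (0.0134) gives no support.

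Ccl2, the monocyte chemokine also known as MCP-1, followed the same order among the MCAO pools, though not among the sham pools. Its signals were 1113.8 and 794.8 in the MCAO vehicle pools, against 47.0 and 86.5 in the sham vehicle pools. With candesartan they were 690.9 and 361.9 in the MCAO pools, against 105.0 and 28.5 in the sham pools. The lowest MCAO pool, MCAO candesartan 2, was still above every sham pool, but it was itself just below the offset. The difference was 1.59 ± 0.22 with vehicle (adjusted p = 0.0648 by limma) and 1.02 ± 0.22 with candesartan (adjusted p = 0.226 by limma), so neither passed alone.

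Both calls over the 2 pretreatments depended on having both pools of the other groups. Cxcl1 gave adjusted p = 0.0882 without sham vehicle 1, 0.115 without sham vehicle 2, 0.0970 without MCAO vehicle 1, 0.0881 without MCAO vehicle 2, 0.102 without sham candesartan 1 and 0.0528 without sham candesartan 2. Ccl2 gave adjusted p = 0.130, 0.121, 0.113, 0.0624, 0.0998 and 0.130 without the same arrays in the same order. The size of the rise moved little: over all 8 arrays left out in turn it was 1.58 to 2.01 for Cxcl1 and 1.17 to 1.44 for Ccl2. Without MCAO candesartan 2, the array that stood apart, both were called over the pretreatments and with vehicle alone. The same held without MCAO candesartan 1. Either fit leaves 1 array in that group. Its pool gap, 0.86 for Cxcl1 and 0.54 for Ccl2, then no longer enters the spread that limma estimates over the groups. The differences with vehicle do not move in these fits, at 2.21 for Cxcl1 and 1.59 for Ccl2.

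**Figure D2:**
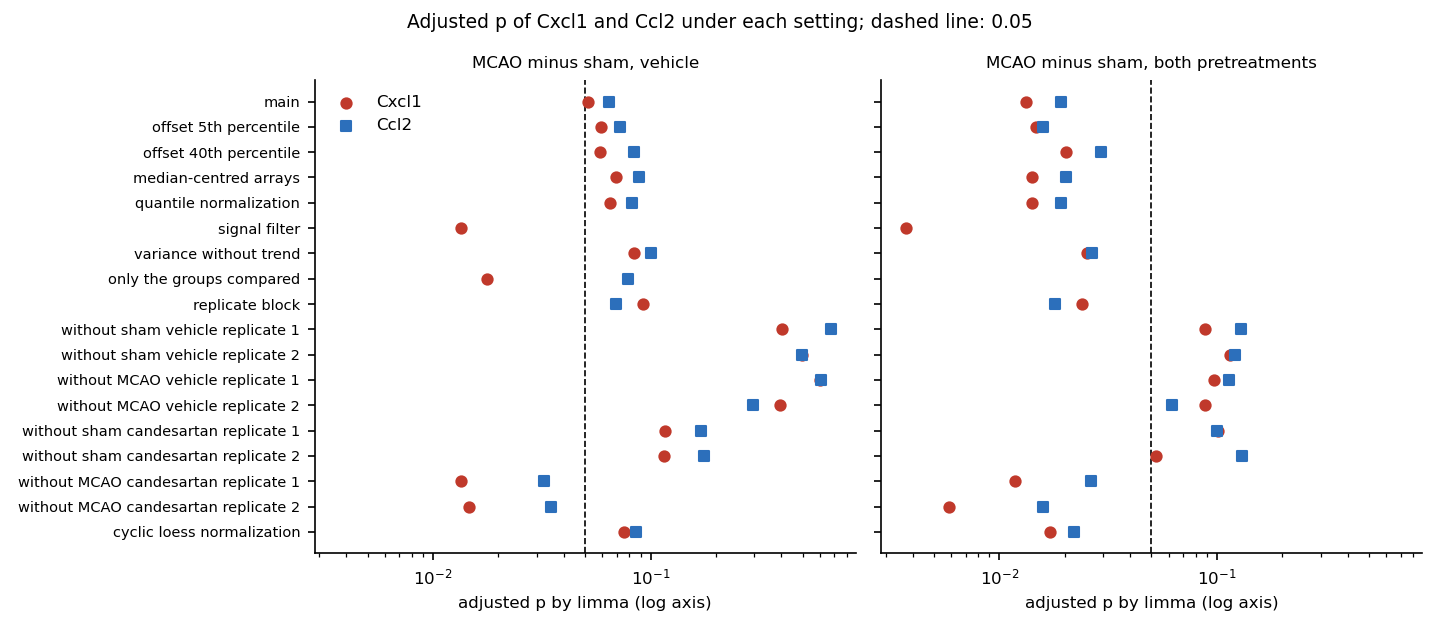
Adjusted p by limma (log axis) for Cxcl1 and Ccl2 under each setting, for MCAO minus sham with vehicle and over both pretreatments, with a dashed line at 0.05. Over both pretreatments the points cross the line only where an array other than the MCAO candesartan pair is left out.

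Whether MCAO pools lie entirely above sham pools is a weak criterion with so few pools. Over both pretreatments it was met by 2.29% of all probe sets and by 2 of the 7 here, Cxcl1 and Ccl2, while 2.16% of all and 0 of the 7 lay entirely lower. With vehicle alone it was met by 23.8% of all probe sets and by the same 2 of 7, while 18.3% of all and 0 of the 7 lay entirely lower. With candesartan alone it was met by 15.1% of all and by 3 of 7, Cxcl2 being the third, while Tnf probe set 1391384_at lay entirely lower, as did 22% of all probe sets.

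Cxcl2, the neutrophil chemokine also known as MIP-2, is the neighbour of Cxcl1 on chromosome 14, with 0 annotated genes between them. Its upstream sequence is shown with those of Cxcl1 and Il6 because these 3 of the 5 genes with an entry held a match to the NF-kB motif, searched on both strands. Each run is the 250 bases before the RefSeq gene start in build GRCr8, read 5′ to 3′ on the gene's strand, with the motif in capitals; where matches on both strands overlap, the capitals span both.
Cxcl1 (chr14:17479322-17479571, minus strand): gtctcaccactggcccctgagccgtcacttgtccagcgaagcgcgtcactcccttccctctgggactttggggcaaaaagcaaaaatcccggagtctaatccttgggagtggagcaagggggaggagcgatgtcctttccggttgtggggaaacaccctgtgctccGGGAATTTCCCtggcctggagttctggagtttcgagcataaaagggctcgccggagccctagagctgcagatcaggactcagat
Cxcl2 (chr14:17467256-17467505, minus strand): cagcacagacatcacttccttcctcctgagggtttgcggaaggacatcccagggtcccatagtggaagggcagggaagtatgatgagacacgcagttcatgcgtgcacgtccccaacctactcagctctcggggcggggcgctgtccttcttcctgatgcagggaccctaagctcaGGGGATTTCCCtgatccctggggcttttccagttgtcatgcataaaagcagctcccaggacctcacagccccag
Il6 (chr4:5894576-5894825, minus strand): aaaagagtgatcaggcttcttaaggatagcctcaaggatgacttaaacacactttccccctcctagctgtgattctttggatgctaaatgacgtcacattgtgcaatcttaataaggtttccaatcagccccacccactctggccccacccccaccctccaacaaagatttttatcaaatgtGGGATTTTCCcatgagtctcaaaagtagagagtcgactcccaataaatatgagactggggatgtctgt
The match began 84 bases before the start in Cxcl1, 74 in Cxcl2 and 68 in Il6. Of 33469 rat promoter windows of this length, 6.33% held such a match. The windows of Il1b and Tnf held none, and both held TATAAA instead, as did 12.9% of all windows. The Il6 window also held the cyclic AMP response motif TGACGTCA, found in 1.59% of all windows. The AP-1 motif TGANTCA was in 0 of the 5 windows and in 6.34% of all windows. These matches describe letters in a window, and the arrays did not measure binding.

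The signals of Cxcl2 were far less regular than those of Cxcl1. They were 753.3 and 494.9 in the MCAO vehicle pools, against 52.0 and 583.4 in the sham vehicle pools. With candesartan they were 601.4 and 369.9 in the MCAO pools, against 268.4 and 279.4 in the sham pools. The pools of sham vehicle differed 11.2-fold, and on the log2 scale with the offset their gap of 1.18 was wider than that of 99.9% of all probe sets in that group. The difference between MCAO and sham was 0.64 ± 0.35 with vehicle (95% interval -0.16 to 1.43) and 0.40 ± 0.35 with candesartan (adjusted p = 0.690 by limma). Over both pretreatments it was 0.52 ± 0.25 (adjusted p = 0.640 by limma). With vehicle it was 1.22 without sham vehicle 2 and 0.048 without sham vehicle 1, so its size depended on which sham vehicle pool was kept.

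Il1b, which encodes a cytokine released after cleavage by caspase-1, had signals above the offset on every array, the only gene of the 6 to do so. They were 879.8 and 663.9 in the MCAO vehicle pools, against 610.0 and 675.4 in the sham vehicle pools. With candesartan they were 791.8 and 466.9 in the MCAO pools, against 512.9 and 536.9 in the sham pools. The groups overlapped within both pretreatments. Over both, the difference was 0.15 ± 0.15 (95% interval -0.19 to 0.49, adjusted p = 0.824 by limma). The upper end of that interval lay below the lower ends for Cxcl1 (1.33) and Ccl2 (0.95) in the same comparison.

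Il6, a cytokine that signals through gp130 and Stat3, was dim throughout. Its signals were 244.0 and 396.4 in the MCAO vehicle pools, against 236.0 and 244.5 in the sham vehicle pools. With candesartan they were 178.5 and 58.5 in the MCAO pools, against 51.0 and 253.4 in the sham pools. Only MCAO vehicle 2 exceeded the offset. The difference over both pretreatments was 0.045 ± 0.16 (95% interval -0.31 to 0.40, adjusted p = 0.959 by limma).

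Tnf, a cytokine that acts on the receptors Tnfrsf1a and Tnfrsf1b, was read by a pair of probe sets. Probe set 1387691_at had signals of 45.0 and 86.5 in MCAO vehicle, against 137.0 and 51.0 in sham vehicle, and of 50.5 and 149.5 in MCAO candesartan, against 109.5 and 86.0 in sham candesartan. Probe set 1391384_at had signals of 272.9 and 413.9 in MCAO vehicle, against 340.0 and 239.5 in sham vehicle, and of 277.9 and 67.5 in MCAO candesartan, against 344.9 and 376.9 in sham candesartan. The first lay below the offset on all arrays. With vehicle the differences had opposite signs, -0.086 ± 0.15 and 0.11 ± 0.22 (adjusted p = 0.999 and 1.00 by limma). With candesartan the second gave -0.46 ± 0.22 (adjusted p = 0.484 by limma). It gave -0.17 without MCAO candesartan 2 and -0.74 without MCAO candesartan 1.

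**Figure D3:**
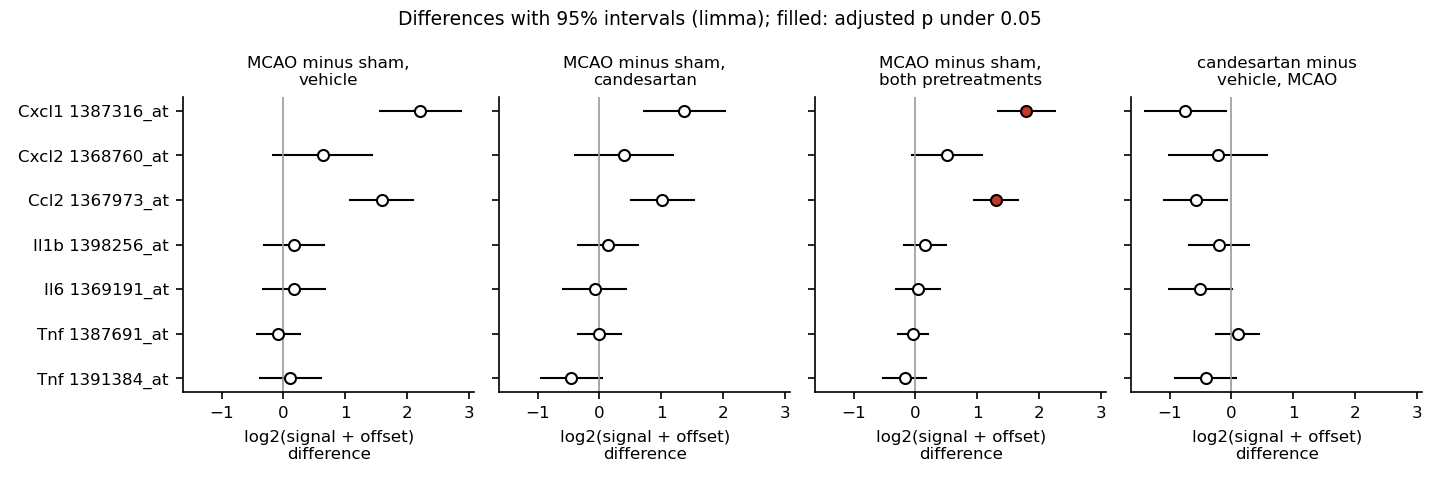
Differences on the log2(signal + offset) scale with 95% intervals by limma for the 7 probe sets in 4 comparisons, filled where the adjusted p was under 0.05. The filled points are Cxcl1 and Ccl2 over both pretreatments.

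The question in the series was whether candesartan changes the response to stroke, and for these genes no change passed the test. Among MCAO pools the difference of candesartan from vehicle was -0.75 ± 0.29 for Cxcl1 (95% interval -1.41 to -0.094, adjusted p = 0.414 by limma). For Ccl2 it was -0.58 ± 0.22 (95% interval -1.09 to -0.069, adjusted p = 0.416 by limma). Mean signals were 914 ± 528 in MCAO candesartan and 1695 ± 58.3 in MCAO vehicle for Cxcl1, and 526 ± 233 and 954 ± 226 in the same groups for Ccl2 (SD, n = 2 pools). For Cxcl1, Ccl2 and Il6 both candesartan pools were below both vehicle pools, as they were for 22.9% of all probe sets. None of the 7 lay entirely higher with candesartan, as 16.7% of all did.

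Of all 15866 probe sets 0 were called higher and 0 lower with candesartan after MCAO by limma, which is 0%, while 1739 had an unadjusted p under 0.05. Cxcl1 and Ccl2 were among these, with unadjusted p = 0.0297 and 0.0305 by limma. The size of the difference depended on which pool of MCAO candesartan was kept. Without MCAO candesartan 2 it was -0.32 for Cxcl1 and -0.31 for Ccl2. Without MCAO candesartan 1, which leaves the array that stood apart alone in its group, it was -1.18 for Cxcl1 and -0.85 for Ccl2. In a group of 2 pools, leaving out either moves the difference equally far in opposite directions, so these values single out neither pool.

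The other members gave -0.22 ± 0.35 for Cxcl2, -0.21 ± 0.21 for Il1b and -0.50 ± 0.22 for Il6 after MCAO, and -0.42 ± 0.22 and 0.10 ± 0.15 for Tnf 1391384_at and 1387691_at. Of the 7 probe sets 6 thus had a value below 0 and 1 above it, while 45.0% of all probe sets were above 0 and their median was -0.026. In 6 of the 7 MCAO candesartan 2 was the lowest of the 4 MCAO arrays, as in 34.7% of all probe sets. In 4 of the 7 (Cxcl1, Cxcl2, Ccl2 and Il1b) MCAO vehicle 1 was also the highest, as in 10.9% of all. No other order of the arrays was counted, so these shares are a description with no test. The values with an MCAO candesartan pool left out cannot show the part of a single pool in these differences, and the cause was not tested.

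The direct test of whether the stroke effect differed between pretreatments gave -0.84 ± 0.41 for Cxcl1 (95% interval -1.77 to 0.087, adjusted p = 0.649 by limma). For Ccl2 it gave -0.57 ± 0.31 (95% interval -1.29 to 0.15, adjusted p = 0.668 by limma). Of all probe sets 0 (0%) were called in either direction, and 1224 had an unadjusted p under 0.05, none of the 7 among them. After sham surgery the difference of candesartan from vehicle was 0.091 ± 0.29 for Cxcl1 and -0.0041 ± 0.22 for Ccl2. In that comparison 0 probe sets (0%) were called by limma and 653 had an unadjusted p under 0.05, again none of the 7. Tnf 1391384_at lay entirely higher with candesartan, as did 21.2% of all probe sets, and Il1b entirely lower, as did 13.7%. Candesartan effects of opposite direction after MCAO and after sham surgery, with no overlap in either, occurred in 7.97% of all probe sets and in 0 of the 7.

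The receptors and other genes of these pathways were read from 6 lists, with the brightest probe set for each gene. Of 164 listed genes 117 were measured, and 1 was called, Zfp36l1, only in MCAO minus sham over both pretreatments. Of all 15866 probe sets 30, or 0.189%, were called in that comparison. With vehicle the median difference between MCAO and sham was 0.079 for 22 other chemokine ligands, 0.084 for 12 chemokine receptors and 0.025 for 34 other cytokine ligands. It was 0.12 for 11 receptors and processing enzymes of the member cytokines, 0.13 for 25 signal transducers and 0.092 for 13 feedback inhibitors. The median over all probe sets was 0.016. With candesartan the medians of these lists, in the same order, were -0.075, -0.27, -0.11, -0.096, 0.15 and -0.056. The median over all probe sets was then -0.035.

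Among the ligands, Ccl3, a macrophage chemokine, had signals of 1866.6 and 2723.0 in MCAO vehicle, against 1413.0 and 1059.8 in sham vehicle, and 1476.2 and 2299.5 in MCAO candesartan, against 861.3 and 1206.3 in sham candesartan. All 4 MCAO pools lay above all 4 sham pools, and the difference over both pretreatments was 0.70 ± 0.17 (adjusted p = 0.304 by limma). Csf2, the granulocyte and macrophage growth factor, gave 0.67 ± 0.20 with vehicle (adjusted p = 0.645) and 0.19 ± 0.20 with candesartan (adjusted p = 0.741 by limma). The T-cell chemokine gene Ccl5 gave -0.67 with vehicle and 0.58 with candesartan (adjusted p = 0.645 and 0.378 by limma). Cxcl12, a ligand of Cxcr4, gave -0.43 and 0.0066, and the skin chemokine gene Ccl27 gave 0.30 and 0.18. The cytokine genes Faslg, Il16 and Ifng gave 0.38, -0.48 and -0.39 with vehicle, and -0.12, -0.13 and -0.21 with candesartan. None of these values passed the test.

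The 12 measured chemokine receptors had 8 values above 0 with vehicle, where 53.9% of all probe sets were above 0. With candesartan they had 0 above 0 and a median of -0.27, and 43.7% of all probe sets were above 0. Of the 12 receptors 0 were called by limma in either comparison, and 4 met the signal criterion. Cxcr1, a neutrophil receptor, had signals of 449.9 and 499.9 in MCAO vehicle, against 326.0 and 217.0 in sham vehicle, and 166.0 and 107.0 in MCAO candesartan, against 631.9 and 398.9 in sham candesartan. It lay entirely higher after MCAO with vehicle and entirely lower with candesartan, a pattern of opposite stroke effects seen in 8.21% of all probe sets and in 0 of the 7, and neither difference passed (0.40 ± 0.19 and -0.80 ± 0.19, adjusted p = 0.838 and 0.254 by limma). Ccr3, Ackr3 and Cxcr4 gave 0.36, 0.27 and 0.31 with vehicle, and -0.080, -0.10 and -0.50 with candesartan.

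Of the genes that process or receive the member cytokines, Casp1, which cleaves the Il1b precursor, gave 0.45 ± 0.23 with vehicle (adjusted p = 0.867 by limma) and -0.068 with candesartan. The Tnf receptor gene Tnfrsf1a gave 0.33 and -0.20, and Adam17, the protease that sheds Tnf from the membrane, gave 0.17 and -0.35. Il1rl1, the receptor of Il33, gave -0.27 and -0.57. Of the signal transducers, Irak4, a kinase of the Il1 receptor pathway, gave -0.66 ± 0.15 with vehicle and 0.61 ± 0.15 with candesartan (adjusted p = 0.384 and 0.259 by limma). Its signals, 31.5 to 353, lay below the offset on every array. Chuk, an IkB kinase, gave 0.44 and 0.15, Mapk8 gave 0.25 and 0.069, and the transcription factor gene Cebpd gave 0.50 and -0.0038. None of these 8 genes was called by limma.

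Zfp36l1, an RNA-binding protein that promotes decay of AU-rich mRNAs, had signals of 6400.2 and 5768.9 in MCAO vehicle, against 3314.3 and 3177.9 in sham vehicle. With candesartan they were 5416.9 and 7757.7 in MCAO, against 3370.3 and 3357.8 in sham. It rose by 0.86 ± 0.11 over both pretreatments (adjusted p = 0.0246 by limma). Its relative Zfp36, tristetraprolin, which destabilises Tnf mRNA, had a difference of 0.75 ± 0.18 that did not pass (adjusted p = 0.285 by limma). Socs2 and Birc3 gave 0.61 and 0.32 with vehicle, and 0.030 and -0.13 with candesartan.

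**Figure D4:**
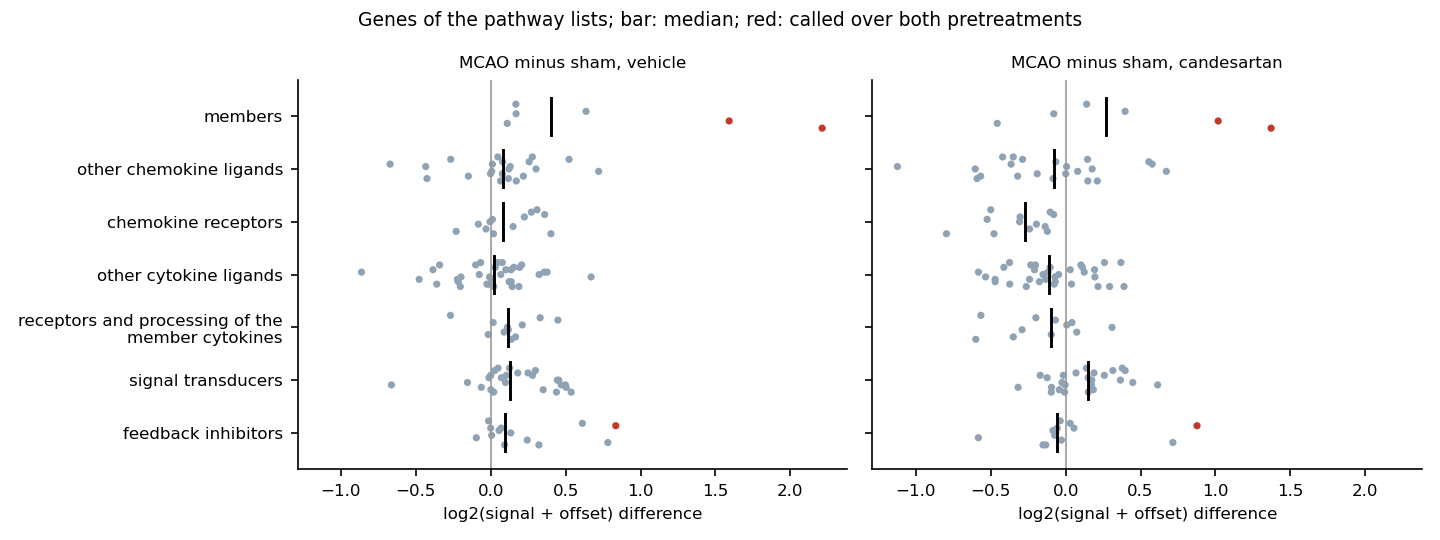
Differences between MCAO and sham on the log2(signal + offset) scale for the genes of each list, with vehicle at left and candesartan at right. Bars are medians, and red points are the genes called over both pretreatments, Cxcl1, Ccl2 and Zfp36l1.

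Markers of the cells that chemokines attract were read beside these values. Of 15 neutrophil markers 7 were measured, 0 of them met the signal criterion and 0 were called by limma. Their summed signal was 1693.7 to 1879.2 in MCAO vehicle against 1080.9 to 1831 in sham vehicle, and 1927.1 to 2076.2 in MCAO candesartan against 1364.8 to 1874.1 in sham candesartan. S100a8 and S100a9 encode the subunits of calprotectin, a protein abundant in neutrophils. S100a8 had signals of 184.5 and 187.5 in MCAO candesartan, against 40.5 and 25.0 in sham candesartan, and of 24.0 and 141.5 in MCAO vehicle, against 26 and 20.5 in sham vehicle. S100a9 had signals of 609.4 and 357.4 in MCAO candesartan, against 176.5 and 308.4 in sham candesartan, and of 364.4 and 495.4 in MCAO vehicle, against 308.0 and 49.5 in sham vehicle. Both thus lay entirely above sham with candesartan, S100a9 also with vehicle. Mmp9 and Lcn2 went the other way with candesartan and lay entirely below sham. Mmp9 was at 212 and 323.4 against 348.9 and 356.4, and Lcn2 at 550.4 and 557.9 against 606.9 and 779.3. Of all probe sets 15.1% lay entirely higher and 22% entirely lower with candesartan, and 23.8% entirely higher with vehicle. Lcn2 was above the offset on all 8 arrays, at 550.4 to 779.3. Of 16 microglia and macrophage markers 14 were measured and 0 were called by limma. Their summed signal was 28867 to 29398 in MCAO vehicle against 31526 to 32157 in sham vehicle, and 29067 to 29917 in MCAO candesartan against 30641 to 35770 in sham candesartan. No marker of either list was at 0 on any array. The microglia sum was thus lower in all 4 MCAO pools than in all 4 sham pools, and the neutrophil sum was higher without overlap only with candesartan. The summed signal of 10 fibroblast and meningeal markers was also below sham in both pretreatments, at 25680 to 25722 in MCAO vehicle against 28039 to 31865 in sham vehicle, and 20107 to 22314 in MCAO candesartan against 23893 to 36766 in sham candesartan. The neuron sum was 246711 to 271307 in MCAO candesartan against 206393 to 208052 in sham candesartan, and overlapped with vehicle at 201246 to 214054 in MCAO against 201091 to 229734 in sham. The astrocyte sum was 189828 to 202201 in MCAO vehicle against 225897 to 230360 in sham vehicle, and overlapped with candesartan at 185278 to 254860 in MCAO against 214765 to 228586 in sham. The sum of 4 red blood cell markers was 80927 to 83421 in MCAO candesartan against 95960 to 111348 in sham candesartan, and overlapped with vehicle at 90666 to 97491 in MCAO against 94311 to 105208 in sham. Of these 4 further lists 0 genes were called by limma. A sum weighs the brightest genes most. Counted by gene, the difference between MCAO and sham with candesartan was above 0 for 2 red blood cell markers and below for 2. With vehicle it was above 0 for 3 and below for 1. For neuron markers it was above 0 for 8 and below for 3 with candesartan, and above for 2 and below for 9 with vehicle. It was below 0 for all 11 astrocyte markers with vehicle and for 8 with candesartan. It was below 0 for 10 of 14 microglia markers with vehicle and 12 with candesartan, and for 8 and 10 of the 10 fibroblast and meningeal markers. Of all probe sets 53.9% were above 0 with vehicle and 43.7% with candesartan. The part of these markers in the rise of Cxcl1 and Ccl2 was not tested.

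The genes whose profile over the 8 arrays was most like that of Cxcl1 or Ccl2 were found by the root mean square difference of log2(signal + offset), each taken relative to its own mean in sham vehicle. Among 8671 probe sets with 1 symbol that met the signal criterion, the nearest to Cxcl1 were Atf3 at 0.34, Clk1 at 0.41, Arc at 0.44, Ptgs2 at 0.46 and Fosb at 0.46. Nearest to Ccl2 were Junb at 0.24, Clk1 at 0.24, Ptgs2 at 0.25, Hspb1 at 0.36 and Homer1 at 0.36. Cxcl1 and Ccl2 themselves were 0.44 apart, while Cxcl1 and its neighbour Cxcl2 were 1.02 apart. Atf3 had differences between MCAO and sham of 2.33 with vehicle and 1.43 with candesartan, beside the 2.21 and 1.37 of Cxcl1. These genes were chosen for their likeness on the same 8 arrays, which fixes that they were higher after MCAO, so the values are a description with no test.

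**Figure D5:**
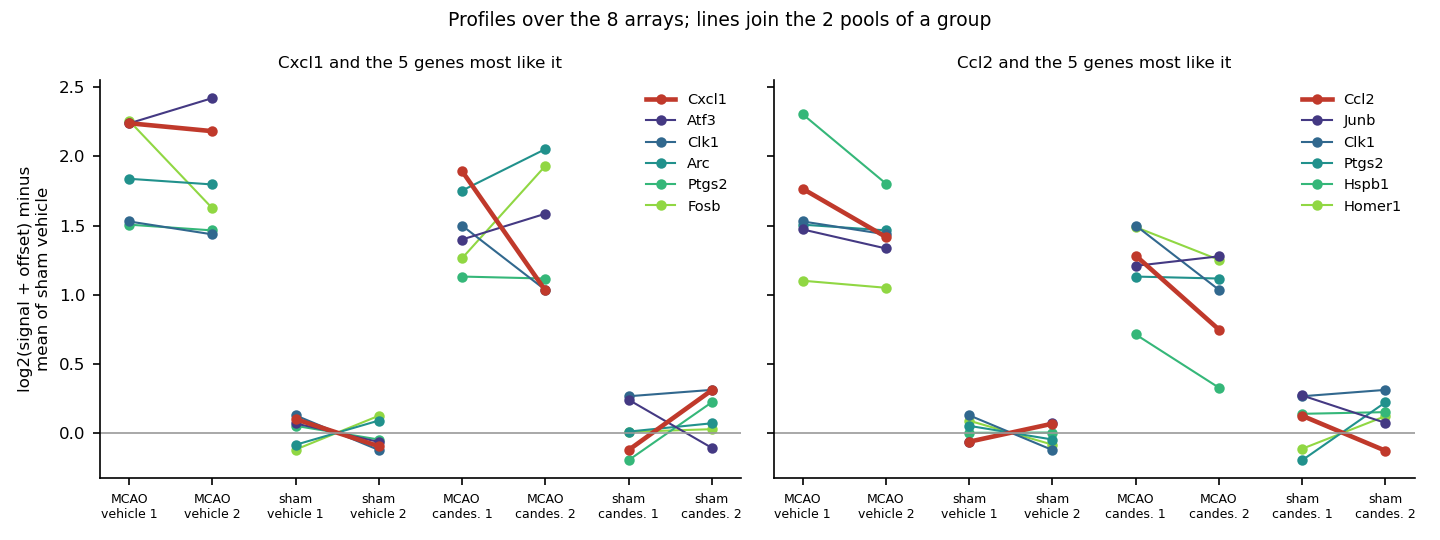
Profiles of Cxcl1 and of Ccl2 (thick red) with the 5 genes most like each, as log2(signal + offset) minus the mean of sham vehicle, with lines joining the 2 pools of a group. All profiles lie above 1 in MCAO vehicle and near 0 in both sham groups, and Cxcl1 and Ccl2 are lower in the second MCAO candesartan pool than in the first.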

How the data were processed

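The authors deposited 1 table of linear signal intensities for the probe sets of 8 arrays. Per the submitters' processing notes GCOS made them; its version and settings are not given in the sources used here. Trimmed means (2% at each end) of the arrays differed by at most 0.000426%, and no scaling was added. Of 15923 probe sets 57 controls were left out. In the platform annotation 12783 probe sets had 1 symbol, 312 several and 2771 none.

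With limma 3.58.1 in R 4.3.3, group means of log2(signal + 369.9) were fitted to all 8 arrays without a signal filter, using lmFit and then eBayes with the trend option (4 residual degrees of freedom). Each of 6 comparisons had Benjamini-Hochberg adjustment over 15866 probe sets. The number of arrays limits the precision: an exact permutation of 2 pools against 2 cannot go below p = 0.333. The pools are independent per the series design. The fit was tested on simulated data.

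Alternatives changed the offset, the scaling, the filter, the variance model or the groups fitted, added a replicate block, or dropped 1 array at a time. Cyclic loess was added after the data were seen. Named pathway genes were the called ones, filled up to 4 a list by the smallest p with vehicle. The members and lists were chosen with earlier results of these data known. RefSeq promoter windows (GRCr8) were matched for 5 of the 6 genes.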

Additional observations from a re-analysis of the deposited data

Results flagged for a closer look

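Several pathway genes had MCAO effects of opposite direction in the 2 pretreatments, with no overlap between MCAO and sham pools in either, a pattern seen in 8.21% of all probe sets. They were Ccl5, Cxcr1, Cxcr4, Faslg and Irak4, and they had been picked for a small p with vehicle. Others had candesartan effects of opposite direction after MCAO and after sham surgery without overlap, as had 7.97% of all probe sets: Cxcr1, Ccr3, Cxcr4, Adam17 and Irak4. The difference between the MCAO effects, candesartan minus vehicle on the log2 scale, was tested for each by limma and passed for none. It was 1.25 for Ccl5 (adjusted p = 0.523), -1.2 for Cxcr1 (0.523), -0.81 for Cxcr4 (0.621), -0.49 for Faslg (0.636), -0.44 for Ccr3 (0.668), -0.51 for Adam17 (0.635) and 1.28 for Irak4 (0.372). The signals of Irak4 lay below the offset on every array. None of the 7 chemokine and cytokine probe sets showed either pattern.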

How the results depend on the processing

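Over both pretreatments Cxcl1 and Ccl2 were called under every setting that kept all 8 arrays, except that Ccl2 has no value with the signal filter. Offsets of 61 and 916.3 turned the rise of Cxcl1 into 3.12 and 1.10 and that of Ccl2 into 2.60 and 0.73. Leaving out each array in turn gave 1.58 to 2.01 and 1.17 to 1.44, with the lone array of a group assumed to vary like the others. With vehicle it gave 2.11 to 2.31 for Cxcl1 and 1.42 to 1.77 for Ccl2, and the difference of 2.21 for Cxcl1 passed with only the compared groups fitted. It also passed with the filter, which Cxcl1 meets only through MCAO pools, so that pass gives no support.

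Counts of called probe sets were 12 for MCAO with vehicle (27 with the filter, 1 to 17 with an array left out) and 16 for MCAO with candesartan, which became 10 with the higher offset or without a variance trend, 25 with the filter, 1 with only the compared groups and 1 to 649 with an array left out. The count over both pretreatments was 30, and 11 to 48 with an array left out. Candesartan after MCAO gave 0, and 7 with the filter, 1 without the trend and 0 to 686 with an array left out. The interaction gave 0, 1 with the higher offset, median centring, quantile or cyclic loess normalization, 2 with the filter or without the trend, and 0 to 1 with an array left out. The 649 and 686 came without MCAO candesartan 1, and the cause was not tested.

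With the pool number as a replicate block, the count for MCAO with candesartan was 3, and no member's call changed. The pool differences of the groups correlated between -0.054 and 0.075 over all probe sets. A correlation over all probe sets cannot settle whether pools of the same number share more than that number.

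Candesartan after MCAO gave -1.18 to -0.32 for Cxcl1 with an array left out, and -1.18, without MCAO candesartan 1, was called. The sign changed for these uncalled values. Tnf 1387691_at for MCAO with candesartan was 0.0016, 0.062, 0.070 and 0.018, and Cxcl2 for candesartan after sham was -0.018, -0.028, -0.045 and -0.039, with the higher offset, median centring, quantile and cyclic loess. With the last 3, Tnf 1387691_at after sham gave -0.033, -0.014 and -0.022 and the Il1b interaction 0.10, 0.12 and 0.12. With an array left out, MCAO with vehicle gave -0.22 to 0.048 for Tnf 1387691_at and -0.033 to 0.25 for 1391384_at. MCAO with candesartan gave -0.36 to 0.20 for Il6, -0.15 to 0.15 for Tnf 1387691_at and -0.097 to 0.38 for Il1b. Over both, Il6 gave -0.097 to 0.19 and Tnf 1387691_at -0.12 to 0.033. Candesartan after MCAO gave -0.050 to 0.26 for Tnf 1387691_at and -0.44 to 0.031 for Il1b. After sham it gave -0.57 to 0.61 for Cxcl2, -0.13 to 0.12 for Ccl2, -0.13 to 0.31 for Cxcl1, -0.12 to 0.15 for Tnf 1387691_at and -0.54 to 0.031 for Il6. The interaction gave -0.83 to 0.35 for Cxcl2, -0.067 to 0.24 for Tnf 1387691_at, -0.26 to 0.21 for Il1b and -0.53 to 0.035 for Il6.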
